A study of Mus musculus with 2 samples.

Results

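The Trps1 locus was followed here as a set of accessible chromatin regions. Its members were the peaks of both peak lists that overlapped Trps1 (ENSMUSG00000038679.16, chr15:50654752-50890463 on the minus strand of GRCm38, the assembly also called mm10) or lay within 200 kb of either gene end, merged wherever they overlapped by at least 1 bp. This gave 124 regions, built from 110 DOX peaks and 97 EtOH peaks, of 275294 merged regions in the whole series. Of the 124 regions, 74 lay in the gene, 37 upstream of it and 13 downstream. The data came from single-nucleus ATAC-seq of primary mouse mammary organoids, small epithelial structures cultured with matrigel. Both groups carried the same alleles on a C57BL/6J background, shTRPS1.34 ki/+ (an inducible short hairpin RNA against Trps1) and CAG-rtTA3 tg/+ (the doxycycline-dependent activator under the CAG promoter). Cells from 3 mice of the hairpin line were mixed in equal numbers for each library according to the additional methods, whereas the series' design names 4 mice. The DOX library came from organoids given 0.1 µg/ml doxycycline for 7 days and the EtOH library from organoids given ethanol for the same time. Hairpin expression and doxycycline itself cannot be told apart, since the EtOH group had neither. The comparison asks how accessibility changed after induction of the hairpin, which acts on the Trps1 transcript and not on the gene, so the accessibility of the locus does not measure the knockdown.

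Trps1 encodes a transcriptional repressor that binds DNA through a GATA-type zinc finger and acts with corepressor complexes such as NuRD and CoREST. It is known in the mammary gland from luminal epithelial cells, and its human counterpart is a marker of breast cancer. In ATAC-seq a transposase cuts and tags open chromatin, so a peak marks an accessible promoter or other regulatory region, and the number of cuts in it is its accessibility in the nuclei summed. GENCODE M21 lists 8 transcripts of the gene with 8 start sites. The first exon of Trps1-202, used here as the reference transcript, begins at position 50889691. Trps1-207 starts 6.9 kb further into the gene and the short Trps1-203 starts 62.2 kb in, inside the gene. The first intron of Trps1-202 spans 42.7 kb and the fourth 157.3 kb, and of the 74 regions in the gene 15 lie in the first of these introns and 41 in the fourth. Regions are named here by the distance of their centre from the Trps1-202 start site, negative values upstream of that site and positive values downstream of it, in the gene or beyond its 3′ end. The -0.4 kb region has a negative name but lies in the gene, since other transcripts start further upstream. The lincRNA gene Gm48913 (chr15:50897639-50946307, plus strand) is the only other gene in the upstream 200 kb of the annotation, and Mir1907 (chr15:50889025-50889114) lies within 1 kb of the Trps1-202 start site, inside Trps1.

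The sequences of 6 regions on which the results turn are shown. Of these, 2 are among the 3 intronic regions whose levels followed the summed promoter regions most closely across clusters of nuclei. The other 4 are among the 6 upstream regions that were higher in DOX among nuclei without immune counts. All 6 were chosen because they hold GATA matches, so they say nothing of how frequent the motif is in either set. Each is the central 300 bases of the merged region on the plus strand of GRCm38, opposite to the strand of Trps1. Capitals mark matches to the GATA motif, searched as AGATAA or AGATAG or TGATAA or TGATAG on both strands. The intronic regions are chr15:50866860-50867159 (+22.7 kb) and chr15:50854648-50854947 (+34.9 kb). The upstream regions are chr15:50956096-50956395 (-66.6 kb), chr15:50985268-50985567 (-95.7 kb), chr15:51022415-51022714 (-132.9 kb) and chr15:51074344-51074643 (-184.8 kb).
+22.7 kb: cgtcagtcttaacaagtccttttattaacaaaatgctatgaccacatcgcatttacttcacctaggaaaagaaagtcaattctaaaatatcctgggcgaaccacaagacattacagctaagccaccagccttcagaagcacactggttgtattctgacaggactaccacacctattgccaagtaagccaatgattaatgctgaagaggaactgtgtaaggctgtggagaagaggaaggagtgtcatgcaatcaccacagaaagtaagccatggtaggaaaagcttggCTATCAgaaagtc
+34.9 kb: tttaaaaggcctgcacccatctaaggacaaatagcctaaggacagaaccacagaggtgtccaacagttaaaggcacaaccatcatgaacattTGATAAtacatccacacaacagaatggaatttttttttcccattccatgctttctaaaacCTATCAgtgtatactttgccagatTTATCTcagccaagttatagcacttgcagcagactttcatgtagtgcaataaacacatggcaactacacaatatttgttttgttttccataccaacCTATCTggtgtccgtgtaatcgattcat
-66.6 kb: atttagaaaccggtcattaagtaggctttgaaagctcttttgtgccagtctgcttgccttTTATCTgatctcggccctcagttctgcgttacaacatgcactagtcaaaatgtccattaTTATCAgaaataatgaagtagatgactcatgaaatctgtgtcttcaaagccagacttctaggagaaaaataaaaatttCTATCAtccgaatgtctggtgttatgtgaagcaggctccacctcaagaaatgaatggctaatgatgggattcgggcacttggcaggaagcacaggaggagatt
-95.7 kb: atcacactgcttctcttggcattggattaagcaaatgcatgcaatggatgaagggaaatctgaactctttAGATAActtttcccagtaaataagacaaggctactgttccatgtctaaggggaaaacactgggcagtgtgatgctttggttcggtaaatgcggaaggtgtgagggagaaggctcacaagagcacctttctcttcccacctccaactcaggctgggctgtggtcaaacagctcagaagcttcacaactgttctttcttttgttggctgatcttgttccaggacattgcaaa
-132.9 kb: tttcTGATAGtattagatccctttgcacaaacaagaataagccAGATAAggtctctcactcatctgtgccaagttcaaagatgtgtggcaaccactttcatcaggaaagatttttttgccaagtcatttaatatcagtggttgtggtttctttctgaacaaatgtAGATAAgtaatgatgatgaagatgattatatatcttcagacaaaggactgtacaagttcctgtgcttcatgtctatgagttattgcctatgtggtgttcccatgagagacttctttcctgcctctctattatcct
-184.8 kb: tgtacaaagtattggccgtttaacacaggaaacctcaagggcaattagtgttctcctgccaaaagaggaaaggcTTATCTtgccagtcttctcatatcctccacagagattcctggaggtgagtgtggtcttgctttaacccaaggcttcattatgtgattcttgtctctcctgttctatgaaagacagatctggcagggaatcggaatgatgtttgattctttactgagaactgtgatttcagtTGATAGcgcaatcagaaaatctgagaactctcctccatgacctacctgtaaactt
The +34.9 kb sequence holds 4 matches, the -66.6 kb and -132.9 kb sequences 3 each, the -184.8 kb sequence 2, and the +22.7 kb and -95.7 kb sequences 1 each. Of the members not shown, the intronic +191.5 kb and the upstream -55.5 kb region hold 0 matches and the upstream -53.0 kb region 1, and the downstream +378.9 kb region, also higher in DOX among these nuclei, holds 0. Among the 83 locus regions with a peak in both libraries, 37 (44.6%) had at least 1 GATA match in their central 300 bases, against 34.5% of all 174940 such regions.

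The DOX library held 3071 nuclei with a median of 75195 counts per nucleus, and the EtOH library 3104 nuclei with a median of 66701 counts. Each group was 1 library, so no test between DOX and EtOH was possible and no p-value is given. Levels are counts scaled to a library total of 1000000 in regions shared by both libraries (CPM), and ratios are log2 of DOX over EtOH. The 95% intervals come from counting statistics alone and do not cover differences between mice, cultures or library preparations. In a sum over nuclei, fewer nuclei of a kind and less signal per nucleus cannot be told apart, so levels are also given within classes of nuclei. The median log2 ratio of all 174772 shared regions with at least 100 counts was -0.13, so a ratio near that value is that of a typical region. Setting this median to 0 would raise each ratio by the same 0.13. Gene promoters differed from this, with a median of 0.09 over the 16339 compared in all nuclei. Counts at any of the 3 immune genes Ptprc, Csf1r and C1qb were found in 73.9% (95% exact binomial interval 72.3 to 75.5) of DOX nuclei and in 57.0% (55.2 to 58.7) of EtOH nuclei. Nuclei with such counts were deeper, with medians of 80390.5 in DOX and 75257 in EtOH against 45191 and 50895 in the rest. In the nuclei with immune counts the summed level of the 6 other immune marker genes was 244 CPM in DOX and 113 in EtOH, and in those without it was 78.4 and 75.5. The 5 pan-epithelial marker genes summed to 238 and 342 CPM with immune counts and to 368 and 358 without. Clustering of nuclei without the locus gave 8 clusters, of which clusters 3 and 4 were immune-like by their markers and held 1290 DOX nuclei (42.0%) and 283 EtOH nuclei (9.12%). These immune-like clusters held 39.2% of the DOX counts and 7.11% of the EtOH counts. Of the nuclei with immune counts, 55.9% in DOX and 15.6% in EtOH lay in these clusters. Ratios in the class with immune counts thus compare different mixtures of nuclei. The nuclei outside the immune-like clusters were also different mixtures, with 57 DOX and 1630 EtOH nuclei in cluster 1 and 1369 and 6 in cluster 2. Ratios outside these clusters or without immune counts are therefore not free of this limit. None of the 6 other immune and 5 pan-epithelial genes was at 0 in these classes of nuclei.

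**Figure D1:**
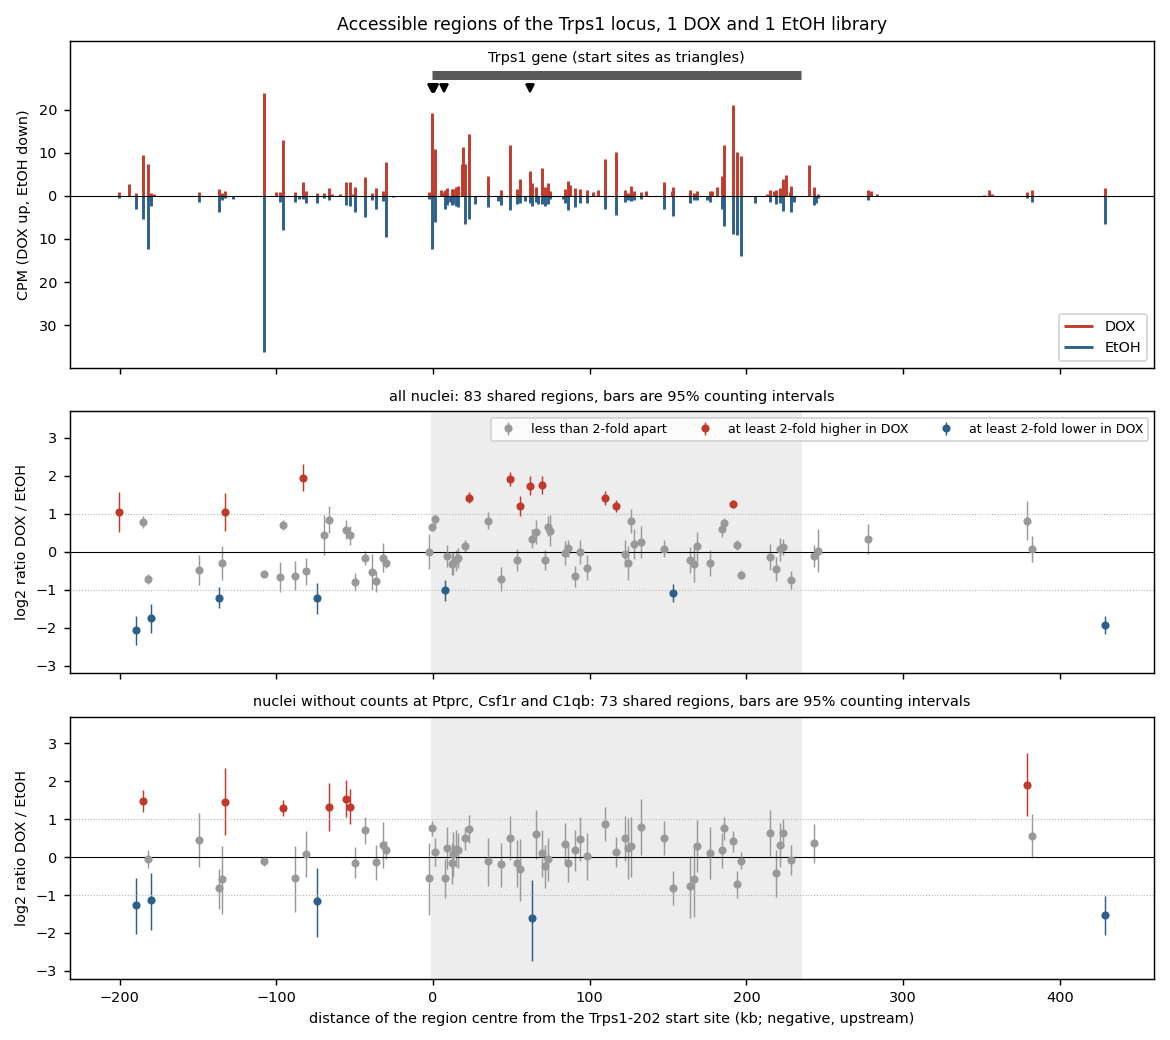
The top panel shows CPM of each region by distance from the Trps1-202 start site in kb (DOX upward, EtOH downward). The lower panels show log2 ratios with 95% counting intervals in all nuclei and in nuclei without counts at the 3 immune genes. In the latter, 0 of 47 compared gene regions and 6 of 22 upstream regions (27.3%) were at least 2-fold higher in DOX. Of all shared regions, 6.08% were.

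A peak in both libraries was present at 83 of the 124 regions (66.9%, against 63.5% of all regions), in DOX only at 27 (21.8% against 17.0%) and in EtOH only at 14 (11.3% against 19.4%). The 83 shared regions held 220 to 12370 counts over both libraries, with a median of 834, and all 83 passed the minimum of 100 counts. In all nuclei 11 of the 83 were at least 2-fold higher in DOX (13.3%), against 13% of all shared regions, and 7 were at least 2-fold lower (8.43%), against 13.4%. Their median log2 ratio was 0.0051. The share of regions 2-fold higher in DOX was therefore near that of the genome, and the count of lower regions was below it. By the counting interval alone, 29 of the 83 regions were higher, 24 lower and 30 within it, while 30.6% of all shared regions were higher and 42.4% lower.

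The direction differed by position. The 50 shared regions in the gene summed to 222 CPM in DOX (95% Poisson interval 219 to 225). In EtOH they summed to 159 CPM (157 to 162), a log2 ratio of 0.48 (0.45 to 0.51). Of them, 8 (16%) were at least 2-fold higher and 2 (4%) lower, against 13% and 13.4% of all shared regions. The 27 shared upstream regions summed to 95.1 CPM in DOX and 111 in EtOH, a ratio of -0.23 (-0.27 to -0.19). There 3 regions (11.1%) were 2-fold higher and 4 (14.8%) lower, near the shares of all shared regions. The 6 downstream regions summed to 7.77 and 12.1 CPM. Among nuclei without immune counts (801 DOX and 1336 EtOH) this order did not hold. There the gene regions had a summed ratio of 0.21 (0.15 to 0.27) and the upstream regions 0.29 (0.22 to 0.36). Here 73 of the 83 regions had at least 100 counts and could be compared. Of these, 7 were at least 2-fold higher (9.59%, against 6.08% of all shared regions) and 5 were lower by that factor (6.85%, against 9.89%). By the counting interval 18 were higher and 9 lower, against 17.5% and 24.7% of all shared regions. Outside the immune-like clusters, where all 83 were compared, 7 were 2-fold or more higher, against 5.35% of all shared regions, and 4 lower, against 8.58%. None of the 7 higher regions lay in the gene, whereas 8 of the 11 higher regions of all nuclei did.

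At the 5′ end of the gene 2 shared regions behaved differently. The region at -0.4 kb (chr15:50889671-50890543) covers the start site of Trps1-202 and 3 neighbouring starts and overlaps the first exon of Trps1-202, and it was the region with the second most counts in the locus. It had 4109 counts in DOX and 2453 in EtOH, or 19.3 and 12.2 CPM, a log2 ratio of 0.66 (0.56 to 0.77). Without the nuclei that had immune counts it was at 20.3 CPM in DOX and 12.0 in EtOH, a ratio of 0.76 (0.56 to 0.96). Outside the immune-like clusters the ratio was 0.73 (0.61 to 0.84), and within them it was 0.26 (-0.03 to 0.56). Its level was thus higher in DOX by about the same factor whether or not the nuclei with immune counts were included. Its levels in immune-like and other nuclei of DOX were close, at 18.6 and 19.8 CPM, and in EtOH they were 15.6 and 12.0.

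The neighbouring region at +1.1 kb (chr15:50888178-50889006) begins just inside the start sites of Trps1-204 and Trps1-205 and overlaps the first exon of Trps1-204. It had 2307 counts in DOX and 1202 in EtOH, 10.9 and 5.99 CPM, a ratio of 0.86 (0.71 to 1.00). Among nuclei without immune counts it was at 5.04 CPM in DOX and 4.56 in EtOH, a ratio of 0.14 (-0.23 to 0.51), and outside the immune-like clusters the ratio was 0.02 (-0.19 to 0.23). Unlike the -0.4 kb region, it was more accessible in immune-like nuclei, with 20.0 against 4.96 CPM in DOX and 20.5 against 4.88 in EtOH. Of its DOX counts, 72.2% came from the immune-like clusters, against 37.8% of those of the -0.4 kb region.

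The internal promoter of Trps1-203 lay in a pair of regions. The region at +62.1 kb (chr15:50827130-50827992) covers its first exon and had 1206 counts in DOX and 341 in EtOH, a ratio of 1.74 (1.49 to 1.99). Its levels were 12.7 CPM in DOX and 14.6 in EtOH within the immune-like clusters and 1.15 and 0.71 in all other nuclei, and 87.7% of its DOX counts came from the immune-like clusters. Within the immune-like clusters the ratio was -0.21 (-0.51 to 0.11), against 0.70 (0.20 to 1.2) in all others. The adjoining region at +63.2 kb in the third intron (chr15:50825959-50827111) had 658 and 488 counts, a ratio of 0.35 (0.11 to 0.59). In nuclei with immune counts its ratio was 0.34, but in those without it was -1.61 (-2.75 to -0.61), on 20 DOX and 105 EtOH counts. Near the start site of Trps1-207, the +7.0 kb region (chr15:50882499-50882977), which covers that start, had a peak in DOX only, with 214 counts (1.01 CPM), and was not counted in EtOH. The shared region beside it at +7.6 kb (chr15:50881716-50882442) was lower in DOX, where 312 DOX counts and 596 EtOH counts gave a ratio of -1.02 (-1.30 to -0.73) in all nuclei and -0.55 (-1.07 to -0.06) in those without immune counts. Together the 5 shared regions within 1 kb of a start site had a ratio of 0.41 (0.25 to 0.56) in nuclei without immune counts, at 29.4 and 22.2 CPM. Of the 15834 gene promoters compared in these nuclei, whose median ratio was 9.6e-05, 4.48% had a ratio at or above that of Trps1.

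A count in any of the 5 promoter regions was found in 66.6% of DOX nuclei (64.9 to 68.3) and in 50.5% of EtOH nuclei (48.8 to 52.3). After thinning each nucleus to 10000 counts, which left out 139 DOX and 118 EtOH nuclei, the shares were 29.4% (27.7 to 31.1) and 17.8% (16.4 to 19.2). The thinned shares in nuclei without immune counts were 21.6% (18.6 to 24.9) in DOX and 14.9% (13.0 to 17.0) in EtOH, with 111 and 97 nuclei left out, and the unthinned shares 45.7% and 39.7%.

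**Figure D2:**
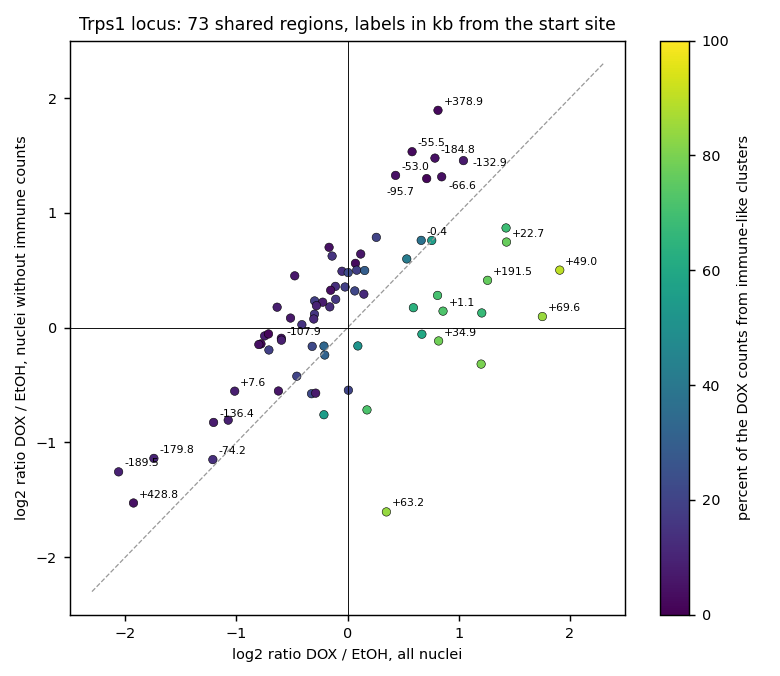
Log2 ratios of the 73 compared regions in all nuclei (x axis) and in nuclei without immune counts (y axis), coloured by the percent of a region's DOX counts that came from immune-like clusters. Regions with a high immune-like share, such as +49.0 kb and +69.6 kb, lie far below the dashed line of equal ratios, the -0.4 kb region near it, and the 7 regions at least 2-fold higher in nuclei without immune counts above it.

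The intronic regions with the highest ratios over all nuclei were regions that were most accessible in the immune-like clusters. Of the 11 locus regions at least 2-fold higher in DOX, 9 had more than 50% of their DOX counts in the immune-like clusters, against 85.5% of such regions over the genome. Of the 7 locus regions at least 2-fold lower, 0 did, against 1.26% of such regions over the genome. The +49.0 kb region in the second intron (chr15:50840196-50841099) had 2532 counts in DOX and 637 in EtOH, 11.9 and 3.17 CPM, a ratio of 1.91 (1.73 to 2.09). Within the immune-like clusters it was at 27.4 CPM in DOX and 25.8 in EtOH, a ratio of 0.09 (-0.14 to 0.32). Outside them it was at 1.93 and 1.44 CPM, a ratio of 0.42 (0.06 to 0.78). The ratio over all nuclei was larger than that within either class. The immune-like clusters held 90.2% of its DOX and 57.8% of its EtOH counts, and the part of the share of immune-like nuclei in the ratio was not tested.

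The ratio over all nuclei was also above that within either class in further intronic regions, of which 3 are described here. Others included +109.9 kb, with ratios of 1.43 over all nuclei, 0.07 within the immune-like clusters and 0.92 outside them. At +116.9 kb they were 1.21, 0.14 and 0.62. The +191.5 kb region in the fourth intron (chr15:50697659-50698673), the intronic region with the most counts, had 4500 counts in DOX and 1776 in EtOH, 21.2 and 8.85 CPM, a ratio of 1.26 (1.15 to 1.37). It was at 41.2 and 40.1 CPM within the immune-like clusters and at 8.26 and 6.45 in the other nuclei, ratios of 0.04 (-0.14 to 0.22) and 0.36 (0.18 to 0.53). The +22.7 kb region in the first intron (chr15:50866549-50867470) had 3071 and 1077 counts, a ratio of 1.43 (1.29 to 1.57). Within the immune-like clusters its ratio was -0.12 (-0.33 to 0.09), at 28.2 and 30.7 CPM, and in the other nuclei 0.70 (0.47 to 0.92), at 5.55 and 3.43 CPM. It thus kept part of its difference among the other nuclei taken as 1 sum. Within the 6 clusters that held at least 50 nuclei of both libraries, its ratio ranged from -1.20 to 0.49. Its interval lay above 0 in 0 of these clusters and below 0 in 1. The +34.9 kb region of the first intron (chr15:50854444-50855151), with 971 and 520 counts, had a ratio of 0.82 (0.60 to 1.04) over all nuclei, -0.54 (-0.87 to -0.20) within the immune-like clusters and -0.13 (-0.49 to 0.24) in the other nuclei.

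The +69.6 kb region (chr15:50819455-50820705), which overlaps the second exon of Trps1-203, differed from these. It had 1391 counts in DOX and 390 in EtOH, a ratio of 1.75 (1.52 to 1.99). Within the immune-like clusters it was still higher in DOX, at 14.1 against 3.22 CPM, a ratio of 2.13 (1.53 to 2.80) on 1178 and 46 counts. Outside them it was at 1.65 and 1.85 CPM, a ratio of -0.16 (-0.52 to 0.20). Its DOX and EtOH peaks failed the stricter overlap used as an alternative, and each library was counted over its own peak. The ratios of the +69.6 kb region may therefore compare partly different stretches. The upstream region at -83.0 kb (chr15:50972283-50973180) had the highest ratio of the locus over all nuclei, 1.94 (1.59 to 2.31) on 676 and 166 counts. Of its DOX counts, 93.6% came from the immune-like clusters, where its ratio was 0.35 (-0.11 to 0.85).

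**Figure D3:**
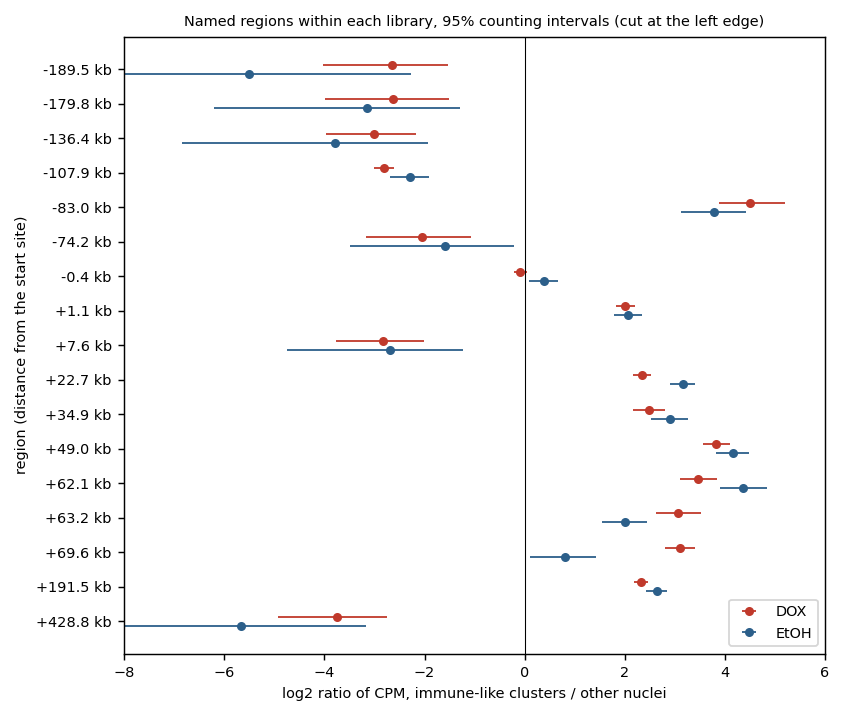
Log2 ratio of CPM in immune-like clusters over all other nuclei, within DOX and within EtOH, for the 17 named shared regions, with 95% counting intervals and the axis cut at -8. The intronic and internal promoter regions from +22.7 to +191.5 kb and the -83.0 kb region lie right of 0, the -0.4 kb region close to 0, and the regions lowest in DOX left of 0.

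Upstream of the gene, a group of regions was higher in DOX among nuclei without immune counts. The 6 regions at least 2-fold higher in these nuclei, at -53.0, -55.5, -66.6, -95.7, -132.9 and -184.8 kb, were singled out after their values were seen, as was the downstream region at +378.9 kb. The immune-like clusters held 1.51% to 6.88% of their DOX counts. The -95.7 kb region (chr15:50984946-50985890) was the most accessible of them, with 2775 DOX counts and 1601 EtOH counts, 13.1 and 7.98 CPM. In nuclei without immune counts it was at 23.3 CPM in DOX and 9.46 in EtOH, a ratio of 1.30 (1.09 to 1.51), and outside the immune-like clusters at 1.31 (1.18 to 1.44). The -184.8 kb region (chr15:51074036-51074952) had 2004 and 1098 counts. In nuclei without immune counts it was at 12.7 CPM in DOX and 4.55 in EtOH, a ratio of 1.48 (1.19 to 1.77).

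The other 4 were less accessible. The -53.0 kb and -55.5 kb regions (chr15:50942030-50943391 and chr15:50944704-50945617) lie inside Gm48913 near its 3′ end and had 671 DOX counts each, with 470 and 424 in EtOH. Their ratios in nuclei without immune counts were 1.33 (0.88 to 1.79) and 1.53 (1.06 to 2.02). The -66.6 kb region (chr15:50955768-50956723) had 394 and 207 counts and a ratio of 1.31 (0.70 to 1.95) in these nuclei. The -132.9 kb region (chr15:51022061-51023069) had 218 and 100 counts and a ratio of 1.46 (0.59 to 2.35). Over all nuclei the ratios of these 6 upstream regions were smaller, 0.43 to 1.04. The +378.9 kb region (chr15:50510337-50511256), with 186 and 100 counts, had a ratio of 1.89 (1.09 to 2.75) in nuclei without immune counts. Median log2 ratios of the compared locus regions with and without a GATA match were 0.34 and 0.03 in these nuclei, and over all shared regions they were 0.03 and -0.12.

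The regions with the lowest ratios lay outside the gene. The -189.5 kb region (chr15:51078705-51079655) had 151 counts in DOX and 595 in EtOH, 0.71 and 2.96 CPM, a ratio of -2.06 (-2.44 to -1.69). The +428.8 kb region (chr15:50460400-50461287), the farthest downstream, had 369 and 1325 counts, a ratio of -1.93 (-2.17 to -1.69). The -179.8 kb region (chr15:51069021-51069994) had 148 and 468 counts, a ratio of -1.74 (-2.14 to -1.36). The regions at -136.4 and -74.2 kb both had a ratio of -1.21. Among nuclei without immune counts all 5 were lower in DOX. Their ratios there ran from -1.53 at +428.8 kb to -0.83 at -136.4 kb, with intervals below 0. The 5 were picked as the lowest over all nuclei, which include these nuclei, so the values are not independent of that choice. The -189.5 and -179.8 kb regions lie on either side of the -184.8 kb region, which was higher in DOX. The most accessible region of the locus, at -107.9 kb (chr15:50997106-50998040), had 5096 counts in DOX and 7274 in EtOH, 24.0 and 36.2 CPM, a ratio of -0.60 (-0.67 to -0.52). Among nuclei without immune counts it was at 38.2 and 41.2 CPM, a ratio of -0.11 (-0.24 to 0.02), close to the median of all regions. It was less accessible in immune-like nuclei, at 5.16 CPM in DOX and 7.85 in EtOH against 36.1 and 38.4 in the others.

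**Figure D4:**
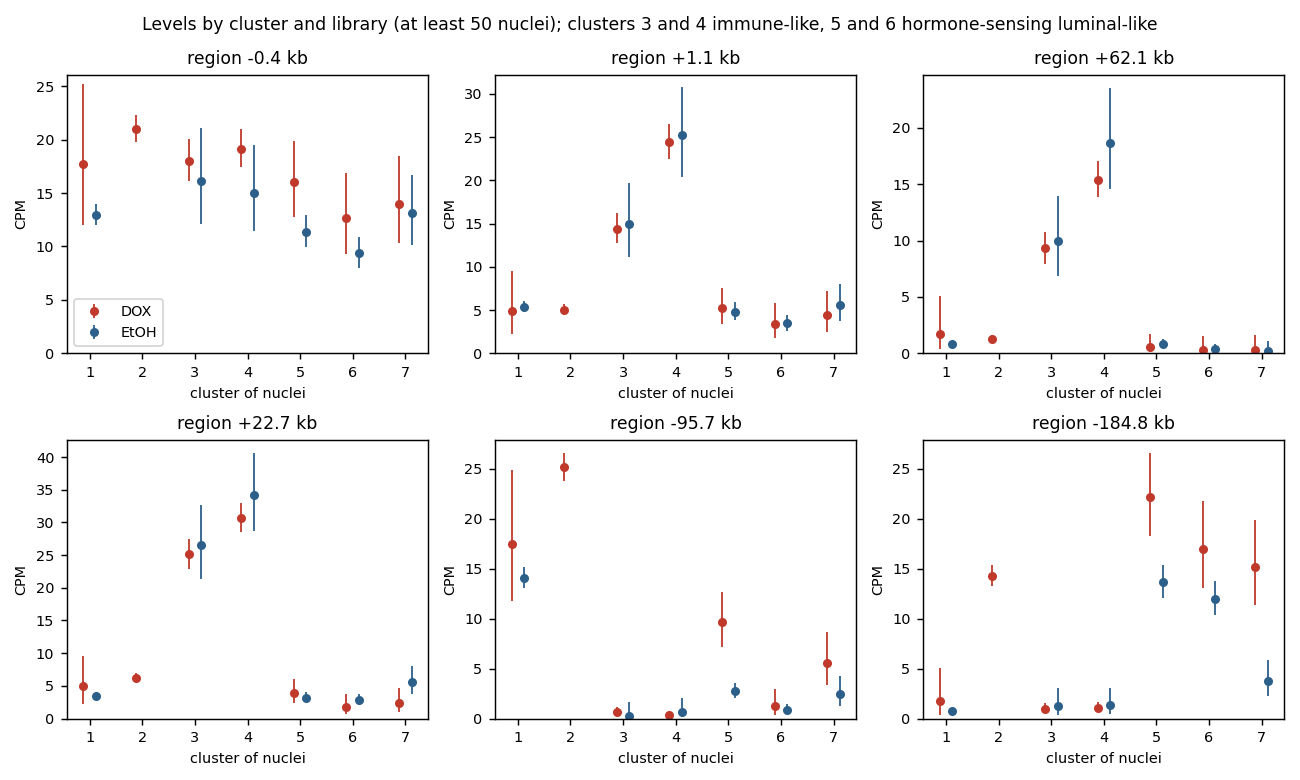
CPM of 6 regions in each cluster of nuclei with at least 50 nuclei of a library, with 95% Poisson intervals. The -0.4 kb region is at 9.35 CPM or more in each of these groups, the +1.1, +62.1 and +22.7 kb regions are highest in the immune-like clusters 3 and 4, and the -95.7 and -184.8 kb regions are near 0 there.

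Levels were compared within the 6 clusters that held at least 50 nuclei of both libraries. Cluster 1 was almost wholly EtOH (57 DOX and 1630 EtOH nuclei) and cluster 2 almost wholly DOX (1369 and 6). Neither matched 1 cell type by its markers, and with 1 library per group a cluster mostly of 1 library may be that library. Clusters 3 (640 and 151) and 4 (650 and 132) were immune-like, clusters 5 (129 and 526) and 6 (94 and 501) hormone-sensing luminal-like. Cluster 7 (94 and 136) had both basal and fibroblast markers and was left unnamed, as was the shallow cluster 8 (38 and 22). Within these 6 clusters the ratio of the summed promoter regions ranged from -0.07 to 0.31, and its counting interval held 0 in all 6. The -0.4 kb region was higher in DOX in each of the 6, by 0.09 to 0.49, and its interval lay above 0 in cluster 5 alone, at 16.0 against 11.4 CPM (ratio 0.49, 0.11 to 0.86). Cluster 2, which had too few EtOH nuclei to compare, had the highest level of this region, 21 CPM (19.8 to 22.3). Cluster 1 had 13.0 CPM (12.0 to 14.0) in EtOH. In clusters 1 and 2 cell type and library cannot be told apart. The same limit touches cluster 5, which at a Leiden resolution of 1 split into a cluster of 5 DOX and 519 EtOH nuclei and another of 126 DOX and 2 EtOH nuclei. At that resolution 5 clusters could be compared, the ratio of the -0.4 kb region ranged from -0.02 to 0.50, and its interval held 0 in all 5.

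Of the 6 upstream regions, -184.8 kb was higher in DOX beyond its interval in 3 of the 6 clusters, -95.7 kb in 2, -53.0, -55.5 and -132.9 kb in 1 each, cluster 5, and -66.6 kb in 0. These regions were picked by their ratios in nuclei without immune counts. The clusters hold many of the same nuclei, so the cluster ratios describe the regions and are not independent of that choice. Between the clusters mostly of 1 library, the -95.7 kb region was at 25.1 CPM in DOX cluster 2 and 14.1 in EtOH cluster 1. In cluster 5, which separates by library at the higher resolution, it was at 9.64 CPM in DOX and 2.73 in EtOH, a ratio of 1.82 (1.24 to 2.40), in cluster 7 it was at 5.55 and 2.49, a ratio of 1.16 (0.06 to 2.31), and in the immune-like clusters it was at 0.65 CPM or less in both libraries. The -184.8 kb region was at 14.3 CPM in DOX cluster 2 and 0.80 in EtOH cluster 1. Its levels in DOX and EtOH were 22.2 and 13.7 CPM in cluster 5, 17.0 and 12.0 in cluster 6, and 15.2 and 3.78 in cluster 7, where the ratio was 2.01 (1.23 to 2.85). The -189.5 kb region, in contrast, was at 1.16 CPM in DOX and 5.56 in EtOH in cluster 5, and at 9.99 and 8.68 in cluster 6. The -107.9 kb region was highest in cluster 1, at 66.0 CPM in DOX and 51.9 in EtOH, and stood at 38.2 CPM in DOX cluster 2.

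The 41 regions with a peak in 1 library were not counted in the other, since each library was counted over its own peaks, and no ratio was computed for them. The strongest DOX-only regions were a neighbouring pair in the first intron, at +19.3 kb (chr15:50870088-50870778) with 2430 counts and +18.4 kb (chr15:50870914-50871637) with 1581. Their levels in immune-like and other DOX nuclei were 18.3 and 6.99 CPM at +19.3 kb and 8.79 and 6.57 CPM at +18.4 kb. More than 50% of the counts came from the immune-like clusters at 15 of the 27 DOX-only regions of the locus, against 67.4% of all DOX-only regions. The EtOH-only regions were weaker, the strongest at +26.5 kb with 376 counts (chr15:50862781-50863631) and at +67.1 kb with 364 (chr15:50822178-50823100, overlapping the fourth exon of Trps1-202). Of the 14 EtOH-only regions, 0 had more than 50% of their counts in the immune-like clusters, against 0.0654% of all EtOH-only regions.

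Across the 13 sums of a cluster in a library with at least 50 nuclei, 21 of the 83 regions had a Pearson r above 0.5 with the summed promoter regions, on the log2(CPM + 1) scale, and 59 had an r below 0. These sums share libraries and depth, so r is a description with no p. The 3 regions outside the promoter with the highest r were +22.7 kb (0.97), +191.5 kb (0.95) and +34.9 kb (0.94). The promoter regions differed in their own r with their sum. It was 0.99 at +62.1 kb, 0.97 at +1.1 kb, 0.78 at +63.2 kb, 0.57 at -0.4 kb and -0.90 at +7.6 kb. A high r with the summed promoter is thus not a high r with the -0.4 kb region. The summed promoter was at 58.3 CPM in immune-like and 28.9 in other nuclei of DOX, and at 59.2 and 22.7 in EtOH. The genes whose promoters were most like that of Trps1 over the same 13 sums, of 16338 compared, were Lpxn, Utp3, Cdc6, Ddx46 and Uspl1, with r from 0.982 to 0.986. Lpxn encodes the focal adhesion adaptor leupaxin, Utp3 a factor of ribosomal RNA processing, Cdc6 a replication licensing factor, Ddx46 a splicing helicase and Uspl1 a SUMO protease.

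For the factors that share the motif or the corepressors of TRPS1, the promoters were compared in the same way. Of the 6 GATA family genes, 5 had enough counts. In all nuclei Gata2 was higher (0.15, 0.03 to 0.28) and Gata3, Gata4, Gata5 and Gata6 lower beyond the counting interval, where 53.8% of all gene promoters were higher and 24.3% lower. Gata3, the luminal GATA factor, had 69.4 CPM in DOX and 78.5 in EtOH (-0.18, -0.22 to -0.13). In nuclei without immune counts it stood at 81.0 and 80.5 CPM (0.01, -0.08 to 0.10), and of the 5 genes Gata4 alone was lower beyond its interval (-0.36, -0.66 to -0.07). Of the 16 NuRD and CoREST subunit genes, 12 were higher, 3 lower and 1 within its interval in all nuclei. In nuclei without immune counts 1 was higher, 2 lower and 13 within it, where 14.3% of all promoters were higher and 12.7% lower. In all nuclei 5.24% of 16339 gene promoters had a ratio at or above that of Trps1.

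Among the other motifs searched on both strands, AP-1 was the only one found in a larger share of the locus than of all regions. Matches were found in 19.3% of the 83 regions for AP-1 (TGACTCA or TGAGTCA; 16.4% of all shared regions), 12.0% for ETS (AGGAAGT or CGGAAGT; 15.9%), 22.9% for SOX (ACAAAG; 26.6%) and 18.1% for TEAD (GGAATG; 20.2%). RUNX (TGTGGTT) was found in 8.43% against 11.2%, FOX (TGTTTAC) in 1.2% against 5.40%, and CTCF in 0 regions against 0.579%.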

How the data were processed

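Single-nucleus ATAC-seq was compared between 1 DOX and 1 EtOH library, each prepared with 7600 nuclei loaded to recover 5000. The deposited matrices hold raw counts per peak and nucleus, made by the authors with Cell Ranger ATAC 2.0.0 on mm10 per the file headers, with peaks called in each library separately; the study's additional methods name another version of that software. Both ends of a fragment are counted, so intervals were computed from counts divided by 2. Wild-type mice are named in a legend of the study, but the genotype labels of GEO were followed here. The libraries held 224762118 counts in 223161 peaks (DOX) and 211963715 counts in 229746 peaks (EtOH), and 23 barcodes occurred in both.

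Peaks were merged with bedtools 2.31.1 at 1 bp of overlap, and 94.7% (DOX) and 94.8% (EtOH) of counts fell in shared regions, whose total set the CPM. Ratios needed 100 counts over both libraries and carry exact conditional binomial 95% intervals. CPM intervals are exact Poisson and shares exact Clopper-Pearson intervals. A call was a ratio of at least 2-fold, or an interval without 0. Nuclei were clustered without the locus (TF-IDF, components 2 to 30, 15 neighbours, Leiden resolution 0.5) in Python 3.11.15 with scikit-learn 1.9.0 and leidenalg 0.10.2. Clusters were named from marker lists by limits set after seeing the data, so shares of named clusters may differ from another naming. No doublet caller was run. Code was tested on simulated data.

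The promoter is the shared regions within 1 kb of a Trps1 start site. Named regions were these, the 5 highest and 5 lowest ratios with at least 200 counts, the 3 with the most counts, the 2 with the most counts in each library alone, and the 3 outside the promoter most correlated with it. Named genes were the 5 promoters most correlated with it. The members, lists and motifs were chosen with earlier results of these data known. Alternatives covered scaling, depth, counting, peak sharing, count minimum, the definition of immune counts and clustering.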

Additional observations from a re-analysis of the deposited data

Results flagged for a closer look

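The +63.2 kb region in the third intron of Trps1, beside the start site of Trps1-203, was singled out because its DOX over EtOH ratio lay above 0 in nuclei with immune counts and below 0 in those without. The log2 ratio was 0.34 (95% counting interval 0.08 to 0.61) on 638 DOX and 383 EtOH counts with immune counts, and -1.61 (-2.75 to -0.61) on 20 and 105 counts without. The difference between both classes of nuclei was not tested, since each group is 1 library. Within the immune-like clusters the ratio was -0.28 (-0.69 to 0.16), and outside them -1.33 (-1.80 to -0.87). Of the nuclei with immune counts, 55.9% in DOX and 15.6% in EtOH lay in the immune-like clusters. Ratios on opposite sides of 0 in both classes were not particular to the +63.2 kb region. At +193.8 kb the ratio was 0.22 (0.08 to 0.36) with immune counts and -0.72 (-1.08 to -0.37) without. At -43.7 kb the order was the other way, -0.48 (-0.70 to -0.26) with and 0.70 (0.35 to 1.05) without.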

How the results depend on the processing

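No paired analysis was possible because there is 1 library per group, and for the same reason no replicate could be left out. The alternatives named as outside the immune-like clusters, all 3 immune genes, or shared regions only were chosen after seeing the data. The promoter ratio of 0.68 over all nuclei was 0.80 with the median of shared regions set to 0, 0.56 with each nucleus counted as 0 or 1, and 0.35 outside the immune-like clusters. The gene-body ratio of 0.48 was 0.61, 0.41 and 0.18 under the same settings and 0.51 without the 5% deepest nuclei. The median over locus regions, near 0, was 0.13 with the median set to 0, 0.12 outside the immune-like clusters, -0.093 without the deepest nuclei, -0.0084 with peaks shared at a stricter overlap and -0.037 at a minimum of 500 counts, so its sign was not settled. Outside the immune-like clusters 7 locus regions were at least 2-fold higher and 4 lower, and 4 named regions went from a ratio above 0 to one below it. Of these, +63.2 kb was at -1.33 (-1.80 to -0.87). The intervals held 0 at +69.6 kb (-0.16, -0.52 to 0.20), +34.9 kb (-0.13, -0.49 to 0.24) and -83.0 kb (-0.38, -1.21 to 0.41). In nuclei with immune counts the promoter ratio of 0.67 was 0.56 with 2 or more of the genes, 0.85 with the median set to 0, 0.012 with all 3 genes and -0.023 in the immune-like clusters. DOX and EtOH nuclei with immune counts were 49.9% and 20.8% with 2 or more genes, 52.8% and 27.5% after thinning, 42.0% and 9.12% by cluster, 33.9% and 6.25% with all 3 genes, and 69.1% and 52.0% over shared regions only. Nuclei with a promoter count were 29.4% and 17.8% after thinning. Of 118 values of the 17 named regions, 92 moved by less than their counting interval, 22 moved by more and 4 changed sign. The cause of these changes was not tested.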
